A study of Kluyveromyces lactis with 6 samples.

Results

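Alcohol dehydrogenases interconvert acetaldehyde and ethanol with NAD(H) as cofactor. The 4 genes described here encode the alcohol dehydrogenases of the budding yeast *Kluyveromyces lactis* that are numbered *ADH1* to *ADH4* in that species. They were chosen by gene identifier: KLLA0F21010g (*ADH1*) and KLLA0F18260g (*ADH2*) for cytosolic enzymes, and KLLA0B00451g (*ADH3*) and KLLA0F13530g (*ADH4*) for mitochondrial enzymes. All 4 were among the 5076 genes with deposited values, and all 4 passed the filter on low values, with 5021 genes tested in total. The RefSeq table of assembly ASM251v1 uses other names. It gives KLLA0F13530g the symbol *ADH3*, gives the other 3 genes no symbol, and puts the symbol *ADH4* on a further gene, KLLA0C19382g. The *K. lactis* numbering is used below, so *ADH4* always means KLLA0F13530g.

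As background, cytosolic alcohol dehydrogenase regenerates NAD+ at the last step of fermentation, by reducing the acetaldehyde made from pyruvate, and it can run backwards when ethanol is the carbon source. A mitochondrial enzyme handles ethanol and acetaldehyde inside the organelle and ties them to the NADH that the respiratory chain oxidises. *K. lactis* respires sugar readily in air, and its mitochondrial pair is known for opposite regulation by ethanol, which induces *ADH4* and represses *ADH3*. Sir2, absent from the mutants, is a histone deacetylase that also consumes NAD+.

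RNA was measured by RNA-seq in 3 strains, with 2 technical libraries of each. The wild type was LRY2835 (*MATa SIR2*), and the mutants were LRY2849, called isolate 1, and LRY2850, called isolate 2 (*MATa sir2* deletion). All 3 strains also lack both silent mating cassettes, *HML* and *HMR*. All grew at 30 °C in rich medium with 2% glucose to early log phase, and a harvest OD of 10 was recorded for each. Each strain stands for 1 isolate, so strain, culture and genotype cannot be told apart for WT, and the 2 libraries of a strain show technical spread only. Values are FPKM, a count of fragments divided by gene length and by the size of the library, which allows levels of different genes to be compared per length. The number of reads is unknown. In bulk RNA, fewer cells using a gene and less RNA per cell cannot be told apart.

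*SIR2* (KLLA0F14663g) was listed at 66.9 and 64.9 FPKM in WT and between 0.0503 and 0.108 in the 4 mutant libraries, as labelled. Summed FPKM of all genes ran from 1542502 to 1803539 per library, the highest being isolate 2 library 2. Of 6 a-cell marker names 5 were matched, and their summed level was 32.8 to 34.0 FPKM in WT, 231.3 to 241 in isolate 1 and 268 to 279 in isolate 2. *AGA2* made up most of the sum in the mutants but not in WT. The matched names did not move together. Both isolates against WT gave 5.68 for *AGA2*, 3.62 for *BAR1* and 0.89 for *ASG7* on the log2 scale. *STE6* was at 0.46 and *STE2* at -0.23, the *STE2* level being 14.1 FPKM in WT and 10.1 to 13.6 in the mutant libraries. Of 3 alpha-cell names 2 were matched, *STE3* and *SAG1*, with sums of 45.3 to 47.5, 49.4 to 56.3 and 60.6 to 61.8 FPKM. In WT, labelled *MATa*, the alpha-cell sum was above the a-cell sum, and no matched marker was at 0, the lowest being *BAR1* (0.275 and 0.599 FPKM). These markers carry their cell type from *Saccharomyces cerevisiae*, and their part in the values below was not tested.

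The 4 genes took different courses in the mutants. *ADH2* and *ADH3* rose, *ADH4* fell by far the most, and *ADH1* did not pass the test over both isolates. Among all tested genes 20.2% were higher and 19.9% were lower in the mutants (limma on log2(FPKM + 1), 3 strain means, adjusted p under 0.05), so 2 higher and 1 lower of 4 is not read as an excess of changed genes. The median change over all tested genes was -0.058 on the log2 scale.

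**Figure D1:**
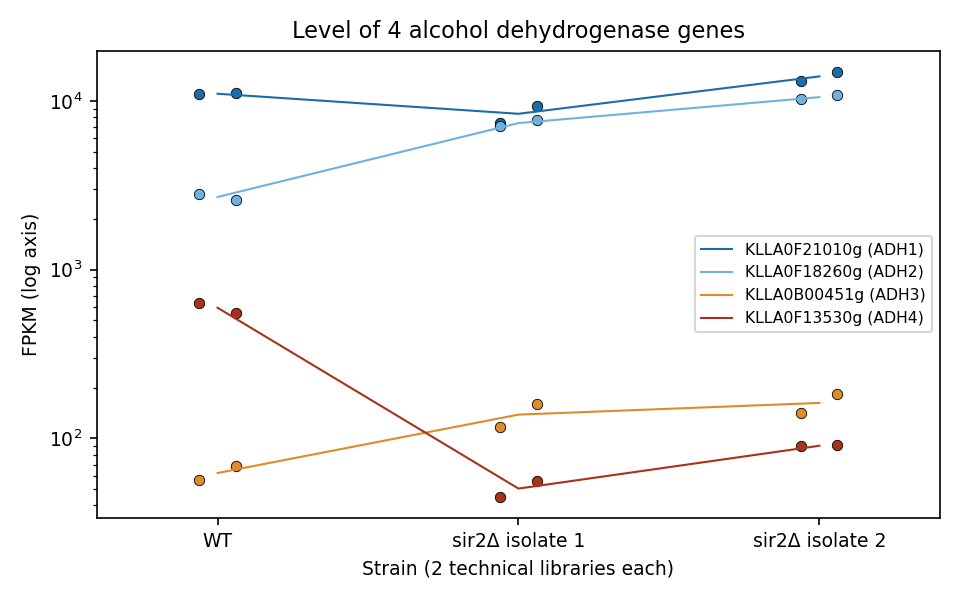
Level of each gene in FPKM (vertical log axis) in the 3 strains; points are the 2 technical libraries of a strain and lines join the strain means. *ADH2* approaches *ADH1* in both isolates, from 2697.6 against 11043.4 FPKM in WT, and the lines of *ADH3* and *ADH4* cross between WT and the mutants.

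*ADH1* (KLLA0F21010g, chromosome F, coding length 1053 nt) was the most abundant of the 4 in each strain. The WT libraries held 10959 and 11128 FPKM of it, those of isolate 1 held 7430 and 9372, and those of isolate 2 held 13126 and 14865. The isolates thus lay on opposite sides of WT, and no library of either overlapped the WT pair. By level it ranked 21st of 5076 genes in WT, 24th in isolate 1 and 15th in isolate 2. Over both isolates the difference from WT was -0.03 (SE 0.31, 95% interval -0.74 to 0.67, limma adjusted p = 0.943), and its sign turned under quantile normalization (0.043) and when the libraries were shifted to the same median (0.0043). The interval leaves room for a change of more than 0.6 in either direction.

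*ADH2* (KLLA0F18260g, chromosome F, coding length 1047 nt) is the second cytosolic gene. WT libraries held 2800 and 2595 FPKM, isolate 1 held 7078 and 7718, and isolate 2 held 10262 and 10825. Every mutant library was well above both WT libraries, and the isolates did not overlap each other. Mean levels were 2.74 times WT in isolate 1 and 3.91 times WT in isolate 2, and the rank by level moved from 123rd in WT to 33rd and 22nd. The change was 1.71 on the log2 scale (SE 0.24, 95% interval 1.15 to 2.27, limma adjusted p = 0.00122), the 220th largest rise of 5021 genes. No nucleotide sequence was used here, so how far reads of 50 bases can be shared between *ADH1* and *ADH2*, which encode closely similar proteins, is not known. Their split carries that uncertainty.

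*ADH3* (KLLA0B00451g, chromosome B, coding length 1161 nt), one of the mitochondrial pair, was the least abundant of the 4 in WT. Its libraries stood at 56.4 and 68.2 FPKM in WT, 117.2 and 159 in isolate 1, and 141.9 and 183 in isolate 2. All mutant libraries were above WT, while the 2 isolates overlapped. Technical spread was wide for this gene: the higher library was 1.21, 1.36 and 1.29 times the lower one in WT, isolate 1 and isolate 2. Mean levels were 2.22 and 2.60 times WT, and the change was 1.24 on the log2 scale (SE 0.16, 95% interval 0.88 to 1.61, limma adjusted p = 0.000731). Its rank by level went from 2427th to 1333rd and 1217th.

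*ADH4* (KLLA0F13530g, chromosome F, coding length 1128 nt), the other mitochondrial gene, moved the opposite way. WT libraries held 633 and 557 FPKM, isolate 1 held 45.2 and 55.6, and isolate 2 held 89.6 and 91.2. The 3 strains did not overlap, and isolate 1 was lowest. The WT mean was 11.8 times that of isolate 1 and 6.58 times that of isolate 2. The change was -3.12 on the log2 scale (SE 0.29, 95% interval -3.80 to -2.45, limma adjusted p = 0.000134), and *SIR2* itself was the one gene with a larger fall among those tested. The rank by level dropped from 348th in WT to 2763rd and 1868th in isolates 1 and 2.

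**Figure D2:**
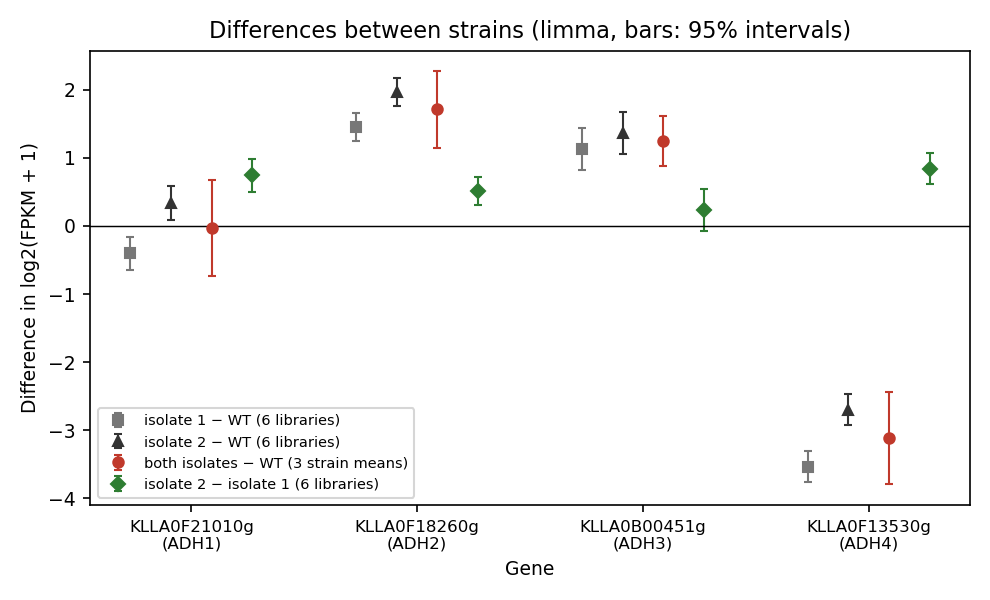
Differences in log2(FPKM + 1) between strains for each gene, with 95% intervals from limma; red circles compare both isolates with WT over 3 strain means, the other symbols come from the fit to 6 libraries, whose intervals rest on technical spread. The both-isolates interval of *ADH1* spans 0, those of *ADH2* and *ADH3* lie above it, and that of *ADH4* lies below it.

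The order of levels changed within the family. In WT it was *ADH1*, *ADH2*, *ADH4*, *ADH3*, and no neighbours in that order overlapped. In both isolates *ADH3* stood above *ADH4*, with no overlap of libraries. *ADH1* and *ADH2* overlapped in isolate 1, where the lower *ADH1* library (7430 FPKM) was below the higher *ADH2* library (7718). In isolate 2 *ADH1* remained clear of *ADH2*.

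Shares of the summed FPKM of the 4 genes do not depend on the scaling of a library, although a share also moves when another gene changes. *ADH1* made up 75.9% and 77.6% of the sum in the WT libraries, 50.7% and 54.2% in isolate 1 and 55.6% and 57.3% in isolate 2. *ADH2* made up 19.4% and 18.1% in WT, 48.3% and 44.6% in isolate 1 and 43.5% and 41.7% in isolate 2. The *ADH1* to *ADH2* ratio was accordingly 4.10 ± 0.26 in WT, 1.13 ± 0.12 in isolate 1 and 1.33 ± 0.067 in isolate 2 (SD over n = 2 technical libraries). The mutants were near parity and WT was not.

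The mitochondrial pair was a small part of the sum in every strain. It held 4.77% and 4.36% in WT, 1.11% and 1.24% in isolate 1, and 0.980% and 1.06% in isolate 2. Both isolates lay below WT by more than the technical spread, but an exact permutation test over the 3 strains gave p = 0.333 (two-sided), the smallest value that 1 strain against 2 allows. Within the pair, *ADH3* was 0.106 ± 0.024 times *ADH4* in WT, 2.73 ± 0.19 times in isolate 1 and 1.79 ± 0.29 times in isolate 2 (SD over n = 2 technical libraries). The less abundant member of the pair in WT was thus the more abundant one in both isolates. The rise of *ADH3* was smaller in FPKM than the fall of *ADH4*: the pair summed to 657 ± 45.8 FPKM in WT against 189 ± 37.2 and 253 ± 29.9.

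**Figure D3:**
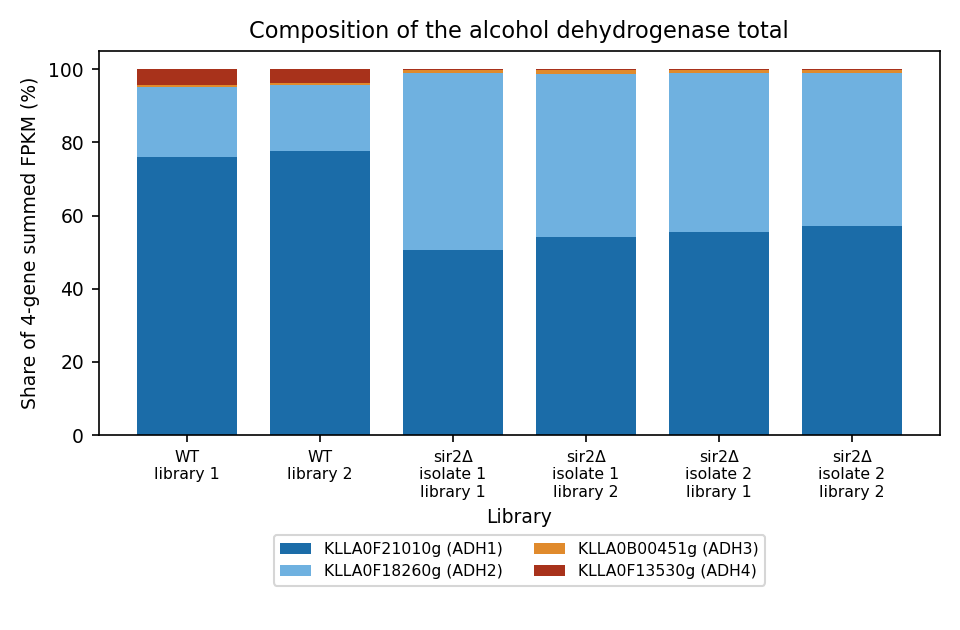
Share of each gene in the summed FPKM of the 4 genes (vertical axis, percent) in each of 6 libraries. The *ADH2* segment grows from 18.7% in WT on average to 46.4% and 42.6% in the isolates, and the *ADH4* segment shrinks from 4.13% to 0.315% and 0.365%.

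The sum of all 4 genes was 14398 ± 71.2 FPKM in WT, 15988 ± 1863 in isolate 1 and 24792 ± 1658 in isolate 2. As a share of the summed FPKM of all genes this was 0.898% and 0.890% in WT, 0.951% and 1.09% in isolate 1, and 1.42% and 1.44% in isolate 2. Isolate 1 stood just above WT and isolate 2 far above it. The exact permutation test over 3 strains gave p = 0.667 for the sum (two-sided), where 0.333 is the smallest possible.

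The isolates differed from each other in 3 of the 4 genes. Isolate 2 was higher than isolate 1 by 0.74 for *ADH1* (SE 0.12, limma adjusted p = 0.000751), by 0.51 for *ADH2* (SE 0.096, adjusted p = 0.00248) and by 0.84 for *ADH4* (SE 0.11, adjusted p = 0.000234), on the log2 scale in the fit to 6 libraries. The difference for *ADH3* was 0.23 (95% interval -0.07 to 0.54, limma adjusted p = 0.297). Among all tested genes 7.89% were higher and 10.8% were lower in isolate 2. These p-values set the isolates apart only against technical spread. With libraries rescaled to the same summed FPKM, chosen once the data had been seen, the median difference over all genes became -0.14, the counts of higher and lower genes went from 396 and 541 to 131 and 955, and *ADH1*, *ADH2* and *ADH4* still differed by 0.60, 0.37 and 0.70 with limma adjusted p-values of 0.00121, 0.00471 and 0.00134.

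Each isolate was also set against WT in the fit to 6 libraries. Both comparisons use the same WT libraries. In isolate 1, where 30.8% of tested genes were higher and 36.6% lower, *ADH1* was at -0.40, *ADH2* at 1.45, *ADH3* at 1.13 and *ADH4* at -3.54, and all 4 passed. In isolate 2, where 32.8% were higher and 38.7% lower, the values were 0.34, 1.97, 1.36 and -2.70, and all 4 passed again. *ADH1* was therefore lower than WT in one isolate (limma adjusted p = 0.00631) and higher in the other (0.0164). Neither call was stable. The first did not pass once isolate 1 replicate 1 was left out (adjusted p = 0.0971), nor under quantile normalization (0.0714). The second did not pass without WT replicate 1 (0.0871), WT replicate 2 (0.0668) or isolate 2 replicate 2 (0.134), and with no filter on low values (0.0758), all in limma.

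Pattern likeness was measured as the distance over the 6 libraries between log2(FPKM + 1) values, each gene centred on its WT mean. Between the 4 genes, *ADH2* and *ADH3* were closest (1.05) and *ADH2* and *ADH4* farthest apart (9.67). The tested genes nearest to *ADH1* were KLLA0D00528g (0.170), KLLA0A12045g (0.218) and *PGI1* (0.274), which encodes phosphoglucose isomerase of glycolysis. *PGI1* stood at 3233, 2590 and 3692 FPKM on average in WT, isolate 1 and isolate 2, on both sides of WT as *ADH1* does. Nearest to *ADH2* were KLLA0D00979g (0.191), *HAP3* (0.204), a subunit of the CCAAT-binding factor, and *NDT80* (0.227), a meiotic transcription factor. Nearest to *ADH3* were KLLA0F11077g (0.278), KLLA0A02013g (0.300) and KLLA0F03146g (0.305). The genes nearest to *ADH4* were farther off: *FAF1* (1.14), KLLA0E14477g (1.34) and *PDR12* (1.72), with changes of -2.92, -2.59 and -2.44 on the log2 scale. This distance is not scaled to the size of a change, and *SIR2* alone fell more than *ADH4*, so few genes could lie near it.

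The surroundings of each gene were described by the 5 measured genes on either side in the RefSeq order. For none of the 4 did all 10 neighbours move in the same direction, although *ADH4*, *UTP11* and *MTC2* stand in a row and all fell. Counts of passing neighbours are to be read beside the 20.2% higher and 19.9% lower among all tested genes. *ADH3* is the 13th measured gene from the left end of chromosome B, and the other 3 lie far from the ends of chromosome F. Of the 10 neighbours of *ADH3*, 4 were higher, 3 lower and 3 did not pass. Those toward the chromosome end include the biotin synthesis genes *BIO3* (0.64) and *BIO5* (0.98), both higher, and *BIO4*, which did not pass (0.08). *BIO3* missed the threshold with libraries rescaled to the same summed FPKM (limma adjusted p = 0.068) and with no filter on low values (0.118). The adjacent gene on the other side, KLLA0B00473g, fell by 1.39 while *ADH3* rose, and KLLA0B00517g, 2 genes beyond it, rose by 3.14.

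Around *ADH4*, 2 of 10 neighbours were higher, 2 were lower and 6 did not pass, near the shares over all tested genes. The 2 lower ones stand next to it: *UTP11* of ribosome assembly fell by 1.69, from 77.0 FPKM in WT to 27.1 and 19.8, and *MTC2* fell by 1.13. On the other side *HSL1*, a cell cycle kinase gene, was at -0.49 and did not pass (limma adjusted p = 0.212). Around *ADH2*, 3 were higher, 1 was lower and 6 did not pass, and the flanking genes *NPR3* (-0.21, not passing) and *CHO2* (0.75, higher) changed less than *ADH2*. With no filter on low values *CHO2* had a limma adjusted p of 0.062. Around *ADH1*, 1 was higher, 2 were lower and 7 did not pass. Its neighbour KLLA0F20988g was about as abundant as *ADH1* in WT, at 11277 FPKM on average. In isolates 1 and 2 it stood higher, at 10976 and 18299.7 FPKM against 8401.3 and 13995.5 for *ADH1*. KLLA0F20988g did not pass (0.33, limma adjusted p = 0.420).

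**Figure D4:**
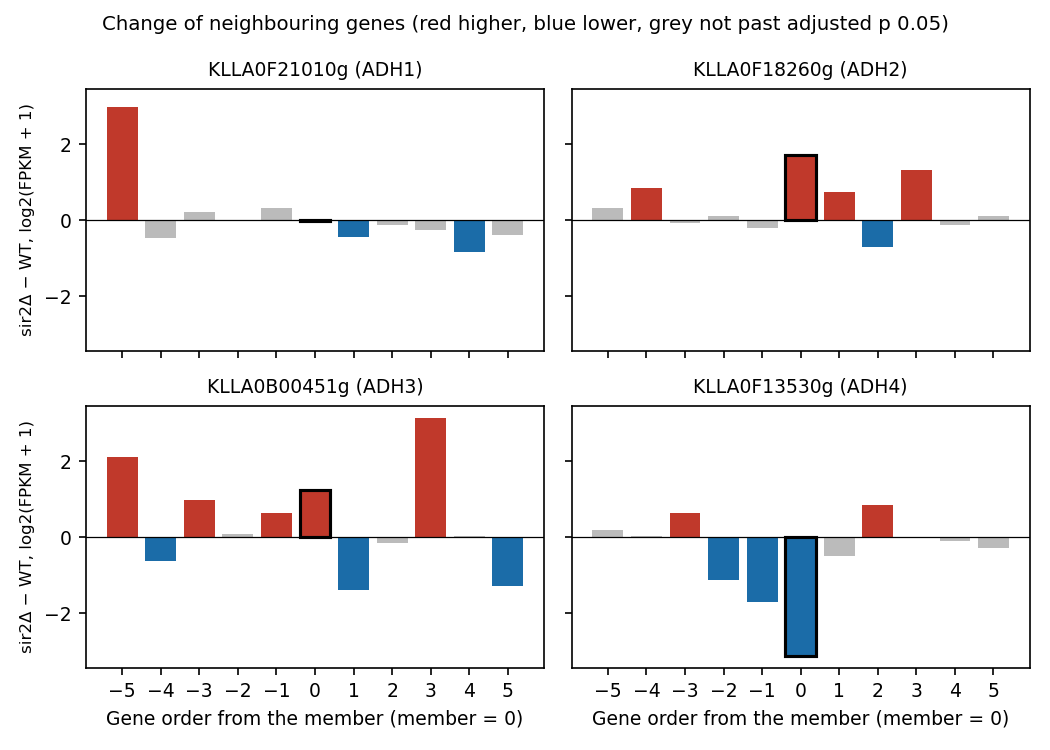
Difference between both isolates and WT in log2(FPKM + 1) (vertical axis) for each gene (outlined, position 0) and the 5 measured genes on either side in chromosome order; red bars are higher, blue bars are lower and grey bars did not pass. Rises and falls both stand among the neighbours of *ADH3*, and *UTP11* and *MTC2* fall beside *ADH4*.

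Other oxidoreductases were mostly higher. This list holds relatives of alcohol dehydrogenase and reductases of similar substrates, and 6 of its 22 names were matched by symbol. Of these 5 were higher, 0 were lower and 1 did not pass (median 1.58, against -0.058 over all tested genes). *SFA1*, which encodes glutathione-dependent formaldehyde dehydrogenase and also acts on long-chain alcohols in *S. cerevisiae*, went from a WT mean of 1413 FPKM up to 4491 in isolate 1 and 5531 in isolate 2 (1.82, SE 0.19, limma adjusted p = 0.000274). *ETR1*, for a mitochondrial enoyl reductase, rose by 2.08, *YIM1* by 1.85, *XYL2*, for xylitol dehydrogenase, by 1.35 and *ZTA1*, for a quinone reductase, by 0.82. *GRE3*, an aldose reductase gene, was at 0.57 and did not pass (limma adjusted p = 0.0631), though it did without WT replicate 1 (0.0433), isolate 1 replicate 1 (0.0456) or isolate 2 replicate 1 (0.0193). KLLA0C19382g, the gene that RefSeq calls *ADH4*, was named after its values were seen. It stood at 118.9 and 125.4 FPKM in WT, 76.6 and 87.8 in isolate 1 and 93.6 and 94.9 in isolate 2, and was lower by 0.47 (SE 0.16, limma adjusted p = 0.0434). That call was lost without WT replicate 2 (0.0581), isolate 1 replicate 1 (0.0517) or isolate 2 replicate 1 (0.0506).

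The steps on either side of acetaldehyde changed unevenly. Of 27 names for genes between pyruvate and acetyl-CoA, 17 were matched, and 6 were higher, 3 lower and 8 did not pass (median 0.15). No gene of pyruvate decarboxylase itself was matched by symbol, so the enzyme that makes acetaldehyde is not described. Among aldehyde dehydrogenases, which oxidise acetaldehyde to acetate, *ALD4* of the mitochondrion rose from 69.8 FPKM to 857.5 and 656.5 (3.41, SE 0.18, limma adjusted p = 5.6e-06). *ALD5* was lower, at 448 FPKM in WT against 319 and 153 (-1.02, limma adjusted p = 0.0455), a call that was lost without WT replicate 2 (0.0991), isolate 1 replicate 1 (0.236) or isolate 2 replicate 2 (0.0586). *ALD6* was at 0.38 and did not pass (limma adjusted p = 0.0655), except without isolate 1 replicate 1 (0.0494). Without isolate 2 replicate 2 the list held 1 lower gene in place of 3.

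Acetyl-CoA synthetases split in the same list. *ACS1* rose by 2.41, from 11.9 FPKM to 58.9 and 78.0, while *ACS2*, the more abundant one in WT, fell by 0.96, from 534 to 275 and 273. *ACH1*, for an acetyl-CoA hydrolase, rose by 1.20, and the mitochondrial pyruvate carrier genes *MPC3* and *MPC1* rose by 1.00 and 0.70. Of the pyruvate dehydrogenase complex, *LPD1* rose by 0.63 and *PDX1* fell by 0.48, while *PDB1* (0.40), *LAT1* (-0.06) and *PDA1* (-0.37) did not pass. In limma *PDX1* no longer passed when isolate 2 replicate 2 was left out (adjusted p = 0.0583), and *PDB1* did pass without WT replicate 1 (0.0474) or isolate 1 replicate 1 (0.0363). Lactate dehydrogenase genes *DLD2* (0.15), *DLD1* (0.02) and *CYB2* (-0.07) and the regulator *PDC2* (0.01) did not pass either.

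A list of NAD(H)- and NADP(H)-dependent enzymes and redox shuttles was higher in 8 and lower in 0 of 14 tested, with 6 not passing (median 0.77; 21 names). Of the higher genes, *IDP1*, *IDP3* and *ZWF1* encode NADP-dependent enzymes. *IDP1*, for mitochondrial isocitrate dehydrogenase, rose by 2.66, *GUT2*, for mitochondrial glycerol-3-phosphate dehydrogenase, by 2.01, *IDP3*, for a further isocitrate dehydrogenase, by 1.78 and *ZWF1*, for glucose-6-phosphate dehydrogenase, by 0.86. *NDI1*, the internal NADH dehydrogenase of the respiratory chain, rose by 0.85. A list of genes for the use of ethanol and acetate as carbon sources also holds regulators. Its genes were higher in 15 and lower in 1 of 24, with 8 not passing (median 1.04, 29 names). They were led by *CIT3* (3.08), *ADR1* (2.64), which in *S. cerevisiae* encodes the activator of that species' own *ADH2*, and *SFC1* (2.59). Numbers of alcohol dehydrogenase genes need not correspond between the species, and a link of *ADR1* to KLLA0F18260g was not tested. *ATO3* was the one lower gene (-1.10), and it missed the threshold without isolate 1 replicate 1 (limma adjusted p = 0.0618). *CAT8* (0.34) and *SIP4* (0.56), regulators of gluconeogenic genes, did not pass. A further regulator in the list, *MIG1* (1.27), was among the 15 higher genes, so that count covers more than genes that carry out this use. *ADR1* stood at 3.62 FPKM in WT and 27.2 and 28.4 in the isolates.

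Glycolysis genes were higher in 0 and lower in 2 of 11, with 9 not passing (median -0.32; 26 names). The lower ones were *GPM1* (-0.76), for phosphoglycerate mutase, and *GPM3* (-0.70). Without isolate 2 replicate 1 *GPM1* missed the threshold (limma adjusted p = 0.0568), which left 1 lower gene. The list is incomplete, since genes under *K. lactis* names were not matched by symbol. Counts of genes passing in these lists are to be read beside the 20.2% higher and 19.9% lower among all genes, and several of the lists share genes with lists already examined in these data.

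**Figure D5:**
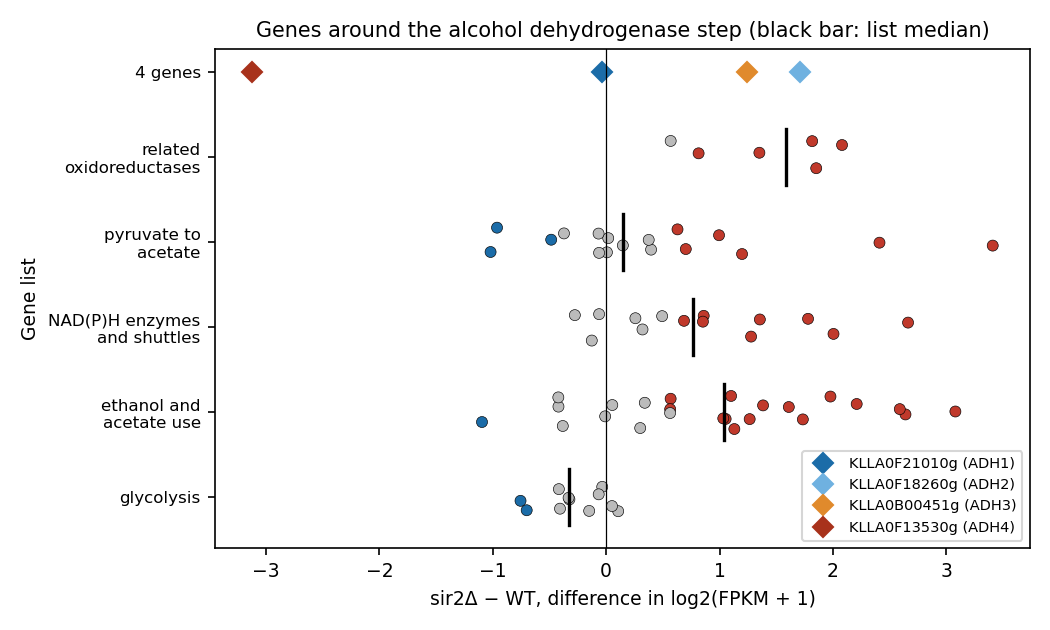
Difference between both isolates and WT in log2(FPKM + 1) (horizontal axis) for the 4 genes (diamonds) and for the members of 5 lists (circles; red higher, blue lower, grey not passing; vertical position within a list is random). The black bars, at list medians from -0.32 for glycolysis to 1.58 for related oxidoreductases, fall between the values of *ADH4* (-3.12) and *ADH2* (1.71).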

How the data were processed

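The authors deposited 1 FPKM value per gene and library. Per the submitters' processing notes, TopHat2 2.0.10 and Cuffnorm 2.2.1 were used. Neither build nor annotation nor the scaling option is stated in the sources used here. The library kit does not keep the strand, per the labels' protocols, and Cuffnorm estimates can divide reads between similar genes. The number of reads, and with it the depth, is unknown.

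The log2 of FPKM plus a pseudocount of 1 was taken, a scale on which low genes appear to change less. Testing required a mean over the 3 strains of at least 1 FPKM, which removed 55 genes. For both isolates against WT, technical libraries were averaged per strain and fitted with limma-trend (limma version 3.58.1, R version 4.3.3), leaving 1 residual degree of freedom and a prior of 7.03. WT was assumed to vary like the isolates. Single isolates were compared in a fit of 6 libraries in 3 groups with 3 residual degrees of freedom. P-values are two-sided and Benjamini-Hochberg adjusted over all tested genes, with a threshold of 0.05. In simulated data the fit of 3 strain means recovered 29.4% of changes of 1 on the log2 scale, 68.7% of 1.5 and 92.6% of 3. Each simulated set held 200 changed genes of 5021, whereas 1013 were called higher and 1000 lower in the data. The adjusted threshold depends on that number, so these percentages do not give the recovery in the data. A gene that did not pass may thus still have changed.

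The RefSeq table gave symbols, coding lengths and gene order. Its start coordinates served only to sort genes along each chromosome. Distances in bases were not used, because the authors' build is unknown. The members and lists were chosen with earlier results of these data known. Named are the 4 genes, the 3 most alike genes of each, their neighbours, all members of the first 2 lists and the extremes among passing members of the other lists. *NDI1*, *ZWF1*, *CAT8*, *SIP4*, *MIG1* and some neighbours were picked as examples after their values were seen. Alternatives covered the pseudocount, filter, scaling, replicate block and each library left out.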

Additional observations from a re-analysis of the deposited data

Results flagged for a closer look

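In 3 of the 4 genes the isolates differed from each other in the fit to 6 libraries (limma). Isolate 2 minus isolate 1 was 0.74 for *ADH1* (KLLA0F21010g), 0.51 for *ADH2* (KLLA0F18260g) and 0.84 for *ADH4* (KLLA0F13530g) on the log2 scale, higher in both isolate 2 libraries than in both isolate 1 libraries each time. *ADH1* also lay below WT in isolate 1 and above it in isolate 2. Each isolate was 1 culture, so whether these differences belong to the isolate or to the culture cannot be told apart.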

How the results depend on the processing

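*ADH2*, *ADH3* and *ADH4* kept their direction and their side of the threshold against WT in all 15 alternatives, with ranges of 1.66 to 1.77, 1.11 to 1.38 and -3.25 to -3.03 and adjusted p at most 0.0254, 0.0137 and 0.0127 in limma. *ADH1* ranged from -0.12 to 0.051, with adjusted p from 0.746 to 0.994. Its sign turned to 0.043 with quantile normalization, to 0.0043 with libraries shifted to the same median, and with single libraries left out it ran from -0.12 to 0.051. Against WT, isolate 1 in *ADH1* missed the threshold with quantile normalization (-0.19) and ran from -0.57 to -0.24 with libraries left out; isolate 2 missed it with no filter on low values (0.34) and ran from 0.25 to 0.43. The differences between isolates kept their calls, from 0.47 to 0.91 for *ADH1*, 0.28 to 0.57 for *ADH2* and 0.69 to 0.99 for *ADH4*.

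Counts over all genes moved more. Lower genes in both isolates went from 1000 to 642 with no filter, to 1740 with 6 libraries entered singly without the replicate block and to 1675 with it. Deviations of same-numbered libraries correlated at 0.0052 and 0.055 between WT and isolates 1 and 2, and at 0.206 between the isolates. The block changed no call of the 4 genes. Between isolates it took the higher genes from 396 to 541 and the lower ones from 541 to 679. With 6 libraries entered singly and the block, *CAT8*, *SIP4*, *ALD6*, *PDB1* and *GRE3* passed (limma adjusted p 0.0292, 0.014, 0.0178, 0.00915 and 0.0269). They also passed without the block (limma adjusted p 0.01785, 0.00667, 0.0151, 0.0046 and 0.01783). Both fits count technical libraries as replicates. In the fit of strain means with no filter on low values, *ATO3*, *ALD5*, *PDX1*, *GPM1* and KLLA0C19382g lost their calls and *SIP4* passed. With libraries shifted to the same median, *ALD5* and KLLA0C19382g lost theirs and *PDB1* passed. After rescaling to equal sums *PDX1* lost its call and *GRE3* passed. Under quantile normalization *GRE3* and *PDA1* passed. Between isolates, the 396 higher genes became 259 with no filter and 131 after rescaling to equal sums, the 541 lower ones 955 after rescaling, and with libraries left out they ran from 71 to 461 and from 161 to 465. They were 119 and 230 without isolate 1 replicate 1, 259 and 342 without isolate 2 replicate 1 and 71 and 161 without isolate 2 replicate 2. Weighting by coding length, which raises the shares of the longer genes, moved *ADH3* in isolate 1 to 0.950%. It moved *ADH4* to 0.338% and 0.392% in isolates 1 and 2. The cause of the moves in the counts was not tested. Unknown depth and single cultures limit all values.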
